A study of Caenorhabditis elegans with 52 samples.

Results

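In germ nuclei of *Caenorhabditis elegans*, 1426 nucleosomes outside the piRNA clusters were occupied in wild type and at or near 0 in *prde-1* mutants at both salt conditions. They were chosen by their levels in these same libraries. A member is a pair of nucleosome centres, 1 from the low-salt and 1 from the high-salt table, that are each other's nearest and lie within 40 bp, with an occupancy of 50 or less in *prde-1* and of 200 or more in wild type in both tables. Such a pair is called lost here, and gained under the reverse rule, which are names for the rule and not the outcome of a test. Of 358321 pairs on the 5 autosomes and the X chromosome, 335801 lie outside the 2 clusters of chromosome IV (chrIV:4800001-7000000 and chrIV:13500001-17300000, ce11). The data do not set the members apart by number, since 1588 pairs outside the clusters were gained.

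Nucleosomes were mapped by native chromatin immunoprecipitation of histone H3 from isolated germ nuclei of young adults, followed by sequencing. By the methods of the study, *prde-1* animals were harvested after more hours of growth than wild type, at a stage when most carried a few embryos. Hours of growth and genotype can therefore not be told apart. The 16 H3 samples of the 52 samples in the series fall into 8 groups of 2: *prde-1*(mj207) V (strain SX2499), wild type (VC2010), and strain YL701 after 3 h in 1 mM auxin or in ethanol, each washed at 150 mM NaCl (low salt, a value from the methods of the study) or at 500 mM NaCl (high salt). YL701 carries ISW-1::eGFP::AID, a chromatin remodeller with a degron tag, and the auxin receptor TIR1 under the germline promoter mex-5p. The study's methods do not list this strain, and whether ISW-1 was depleted was not checked here. Each library merges 2 replicates, so no test across replicates was possible, depth per replicate is unknown, and intervals below cover the spread over nucleosomes only. In the high-salt H3 samples the genotype field of the labels swaps wild type and *prde-1*, and in some YL701 samples the treatment field contradicts the salt; the titles were followed. With that reading, pairs inside the clusters met the lost rule 3595 times and the gained rule 1004 times in the high-salt table, and 2839 and 651 times in the low-salt table.

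A nucleosome is a stretch of DNA wound around histones, and its dyad is the midpoint of that stretch. piRNAs are small RNAs that guide PIWI proteins against foreign sequences in the germ line. Most worm piRNA genes are short independent transcription units crowded into clusters, each with an upstream Ruby motif whose core is CTGTTTCA, and PRDE-1 belongs to the complex that binds there and is needed for their transcription. The libraries of YL701 played no part in choosing the members and give the measure of occupancy here that is independent of the rule.

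The sequences below belong to the lost nucleosomes that were also highly occupied in the ethanol library at high salt, and are shown because most carry the core motif. On chromosome IV, 10 members carried the core motif within 150 bp of the dyad and had an ethanol occupancy of 1000 or more. For each, 40 bases before and 50 bases after the motif are given 5′ to 3′ on the strand of the motif, from the RefSeq genome (WBcel235, which is ce11), with the motif in capitals.
R13.7 side (chrIV:10805379-10805476, plus strand): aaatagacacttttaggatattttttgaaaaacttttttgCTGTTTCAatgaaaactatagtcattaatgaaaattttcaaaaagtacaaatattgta
deb-1 intron (chrIV:7094111-7094208, plus strand): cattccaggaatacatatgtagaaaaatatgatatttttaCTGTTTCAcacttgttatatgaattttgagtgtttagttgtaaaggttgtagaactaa
npr-2 intron (chrIV:9570088-9570185, plus strand): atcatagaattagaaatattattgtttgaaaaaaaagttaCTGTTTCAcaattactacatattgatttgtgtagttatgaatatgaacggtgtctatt
lron-14 intron, first (chrIV:9561593-9561690, minus strand): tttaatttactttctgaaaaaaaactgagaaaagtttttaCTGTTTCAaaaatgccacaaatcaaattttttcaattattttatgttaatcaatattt
lron-14 intron, second (chrIV:9561999-9562096, minus strand): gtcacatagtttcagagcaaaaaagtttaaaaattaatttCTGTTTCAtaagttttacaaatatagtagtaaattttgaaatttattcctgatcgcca
twk-8 upstream (chrIV:9081722-9081819, plus strand): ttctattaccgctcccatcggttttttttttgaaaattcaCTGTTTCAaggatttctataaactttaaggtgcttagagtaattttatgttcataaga
cpin-1 and cutl-17 (chrIV:9451755-9451852, plus strand): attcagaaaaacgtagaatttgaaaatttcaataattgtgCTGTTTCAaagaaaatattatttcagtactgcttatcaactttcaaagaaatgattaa
thn-1 downstream (chrIV:12381088-12381185, plus strand): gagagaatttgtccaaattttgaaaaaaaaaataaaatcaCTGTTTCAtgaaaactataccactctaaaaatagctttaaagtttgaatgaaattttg
daf-10 intron (chrIV:9140078-9140175, plus strand): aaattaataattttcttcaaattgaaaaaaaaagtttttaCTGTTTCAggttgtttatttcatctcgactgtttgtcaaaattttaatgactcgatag
srf-3 upstream (chrIV:12849236-12849333, minus strand): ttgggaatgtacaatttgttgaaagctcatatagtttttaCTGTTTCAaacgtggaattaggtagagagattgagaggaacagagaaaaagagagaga

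In the same group, 4 further members had no exact core motif but lay 85 to 332 bp from an annotated piRNA 5′ end. Their footprints, 73 bases either side of the dyad, are shown with that of the member in *xpc-1*, which stands out for its base composition. No exact motif falls in these windows, so no letter is in capitals, and since the sources used here do not say whether the deposited positions count from 0, the windows may be off by 1 base.
21ur-9462 side (chrIV:10541115-10541261, plus strand): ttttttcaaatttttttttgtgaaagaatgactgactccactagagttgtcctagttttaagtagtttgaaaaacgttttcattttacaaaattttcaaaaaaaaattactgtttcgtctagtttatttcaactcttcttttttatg
21ur-9485 side (chrIV:9785335-9785481, plus strand): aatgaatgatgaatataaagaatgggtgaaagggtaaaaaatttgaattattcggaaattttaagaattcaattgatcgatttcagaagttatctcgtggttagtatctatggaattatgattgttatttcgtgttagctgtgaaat
21ur-14139 side, first (chrIV:8770471-8770617, plus strand): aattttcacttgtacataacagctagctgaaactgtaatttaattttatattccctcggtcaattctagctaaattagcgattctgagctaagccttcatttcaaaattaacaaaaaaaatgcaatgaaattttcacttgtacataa
21ur-14139 side, second (chrIV:8770614-8770760, plus strand): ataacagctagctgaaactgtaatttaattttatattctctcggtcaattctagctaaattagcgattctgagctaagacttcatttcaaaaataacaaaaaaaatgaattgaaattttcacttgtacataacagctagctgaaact
xpc-1 intron (chrIV:2005406-2005552, plus strand): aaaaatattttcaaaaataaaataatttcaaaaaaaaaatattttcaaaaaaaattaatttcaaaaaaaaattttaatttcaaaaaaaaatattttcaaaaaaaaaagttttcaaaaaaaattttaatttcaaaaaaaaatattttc
The footprints beside 21ur-14139 are copies of a repeat. Over 290 bases, the sequence shifted by 128 bp was 96.9% identical to itself (162 bases compared), so the 2 dyads there, 143 bp apart, are not separate loci and reads may not be told apart between copies.

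Outside the clusters lost and gained nucleosomes were nearly equal in number, and inside them they were not. The lost rule took 0.425% of the pairs outside and the gained rule 0.473%, so that lost pairs made up 47.3% of both together (95% exact binomial interval over nucleosomes 45.5% to 49.1%). Inside the clusters 913 of 22520 pairs were lost (4.05%) and 56 were gained (0.249%), and lost pairs made up 94.2% (92.6% to 95.6%). Neither share was tested, because each group is 1 merged library.

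The members were spread over every chromosome. Chromosome V held 336 lost and 315 gained pairs, and the X chromosome 278 and 309. Chromosome II held 244 lost and 260 gained pairs, chromosome IV outside the clusters 202 and 216, chromosome I 197 and 244, and chromosome III 169 and 244. Per 1000 pairs, lost nucleosomes ran between 3.26 on chromosome III and 4.92 on chromosome IV outside the clusters, and gained ones between 4.37 on chromosome V and 5.26 on chromosome IV. The stretch of chromosome IV between the clusters had 5.56 lost and 5.96 gained per 1000, against 28.2 and 5.21 in the left cluster and 47.2 and 1.02 in the right cluster. In 96 windows of 1 Mb with at least 1000 pairs outside the clusters, none lacked a lost nucleosome, with a median of 4.24 per 1000 and a highest value of 7.26. With each chromosome cut into 3 equal parts, the lost rate was 4.01 in the left arms, 4.72 in the centres and 4.01 in the right arms.

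**Figure D1:**
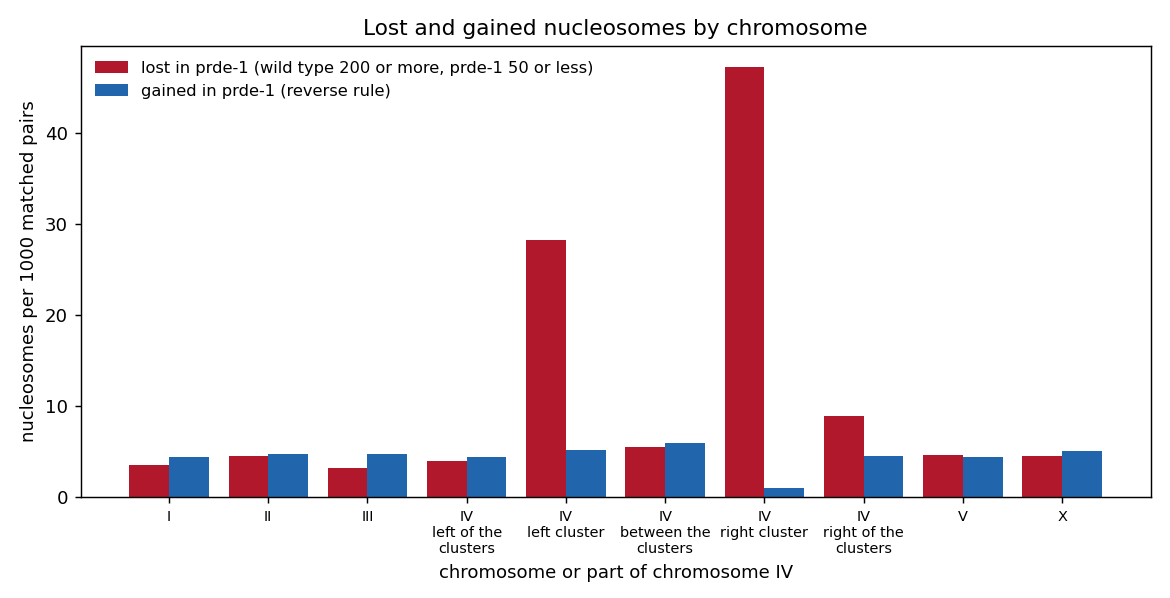
Lost (left bars) and gained (right bars) nucleosomes per 1000 matched pairs for each chromosome, with chromosome IV in 5 parts. Both bars stay between 3.26 and 5.96 except in the clusters and in the short stretch right of them, where 6 lost and 3 gained of 670 pairs gave 8.96 and 4.48.

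The levels that chose the members are a description only. At low salt the median summit occupancy, the H3 minus input signal at the summit of the nucleosome, was 0 in *prde-1* (upper quartile 17.0) and 262 in wild type (quartiles 226 and 319). At high salt it was 0 in *prde-1* (upper quartile 20.2) and 281 in wild type (quartiles 234 and 348). In *prde-1*, 898 members were listed at 0 at low salt, 846 at high salt and 528 (37.0%) at both. The gained set mirrored this, with 579 (36.5%) of its pairs at 0 in wild type at both salts.

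Many members lay close to the thresholds. At low salt the member nearest the wild type threshold, in an intron of *tag-343*, had 200.03, and a pair beside C10C5.7 with 199.94 just missed it. At high salt the nearest, beside *trx-5*, had 200.12, and a pair in an exon of F55H12.3 with 199.93 just missed it. For *prde-1* the nearest were 49.99 in *ckc-1* at low salt and 49.90 in *fut-6* at high salt, against 50.10 in *str-89* and 50.00 in *tsg-101* for the pairs that just missed. The smaller of the 2 wild type values was under 250 for 879 of the 1426 members and 400 or more for 39.

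Most nucleosomes that met the lost rule at 1 salt did not meet it at the other. Outside the clusters 17468 pairs met it at low salt, and 8.16% of them also met it at high salt, where 6.23% of all pairs did. For the gained rule 8.91% of 17817 pairs met it again, where 7.90% of all pairs did at high salt. Inside the clusters 32.2% of 2839 pairs lost at low salt were also lost at high salt, where 3595 of all 22520 pairs there met it at high salt. The labels do not say whether the low-salt and high-salt samples came from the same nuclei, so the 2 tables are not taken as independent.

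A member stood alone between neighbours with like levels in both genotypes. At low salt the nucleosomes before and after a lost one had median occupancies of 98.5 and 86.3 in *prde-1*, and of 105 and 100.3 in wild type. At high salt they were 108 and 113 in *prde-1*, and 121 and 116 in wild type. The next nucleosome on either side met the lost rule in 6.52% and 6.94% of cases at low salt, against 5.20% of all pairs. Median distances to these neighbours were 173 and 168 bp at low salt. The neighbours of lost nucleosomes were lower in both genotypes than those of all pairs with 200 or more in wild type, where the medians at low salt were 184 and 180.3 in *prde-1*, and 177 and 176 in wild type.

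**Figure D2:**
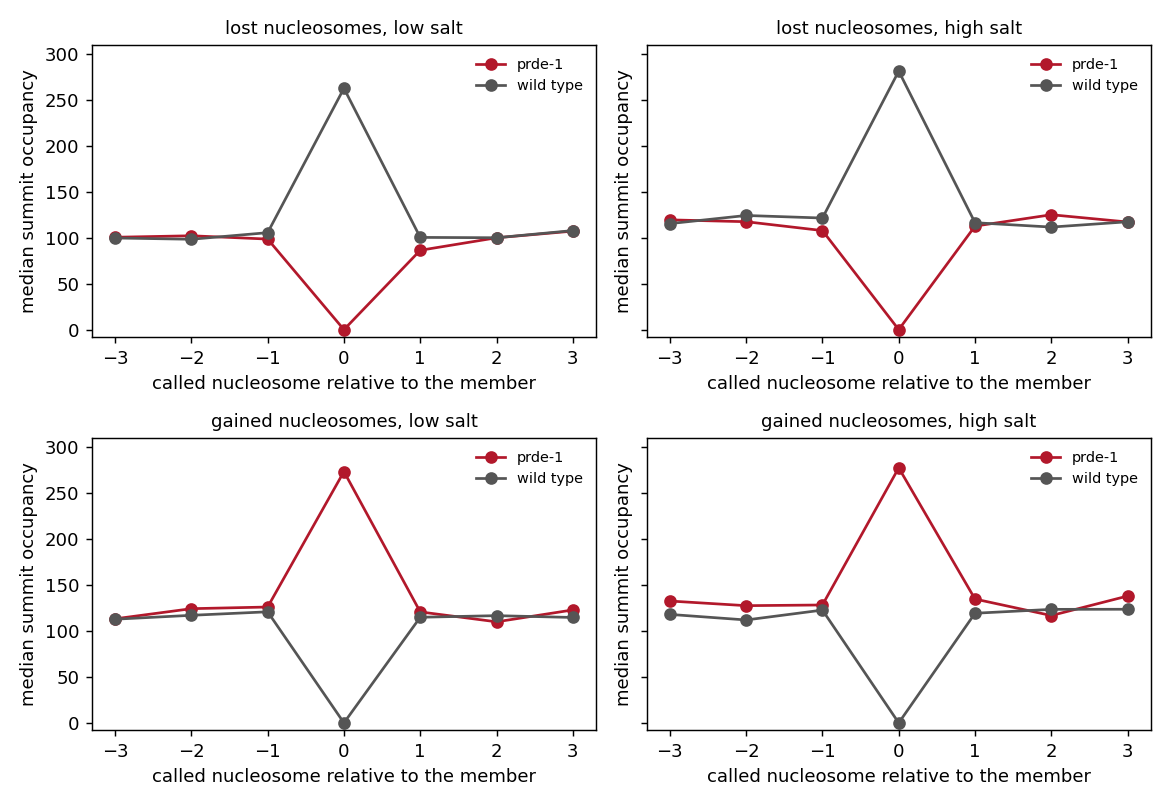
Median summit occupancy of the lost or gained nucleosome (position 0, which chose the set) and of the 3 called nucleosomes on each side, in *prde-1* (red) and wild type (grey), at low and high salt. Beyond position 0 the 2 lines lie within 20 units of each other in every panel.

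Clusters of members were rare. Of the 1426 lost nucleosomes, 1371 had no other within 1000 bp, 26 runs held 2, and 1 run held 3, while gained nucleosomes gave 1527, 29 and 1. The lost run lies in R03D7.2 on chromosome II (dyads 10933610, 10934240 and 10935027). Its 3 members had 4.97, 0 and 0 in *prde-1* and 318, 318 and 248 in wild type at low salt, while in ethanol at high salt they had 189.6, 265 and 29.1. The gained run lies in F33H2.2 on chromosome I (dyads 15026643, 15026745 and 15027063). Lost dyads lay within 300 bp of a gained one in 14 cases (0.982%), against 1.21% of all pairs. The most lost nucleosomes in a protein-coding gene and its 500 bp upstream were 4, in *unc-53* and in *unc-73*, both long genes for axon guidance.

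In the libraries of the degron strain, which the rule did not use, lost nucleosomes were less occupied than other nucleosomes that were high in wild type. At low salt 899 members had a nucleosome within 40 bp in the YL701 table (63.0%, against 81.8% of all pairs with 200 or more in wild type and 68.3% of all pairs). Their median occupancy was 89.0 in auxin and 119.8 in ethanol (interval of the ethanol median 109.5 to 134). The 49283 matched pairs with 200 or more in wild type had 256 in auxin and 308 in ethanol, and those with 50 or less in wild type had 75.9 and 88.8. Lost pairs were lower in wild type than the set with 200 or more (low-salt medians 262 and 356). Where the smaller wild type value was 200 to 250, ethanol medians at low salt were 111 in lost pairs and 231 in that set. At high salt they were 84.8 and 168. All matched pairs outside the clusters had 140.5 in auxin and 169 in ethanol.

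Gained nucleosomes were not lower than lost ones in these libraries. At low salt the 1098 matched gained pairs had a median of 143 in auxin and 145 in ethanol (interval 137 to 159). At high salt the 898 matched lost pairs had 109 in auxin and 95.0 in ethanol (84.5 to 108), and the 1026 matched gained pairs had 127 and 109 (98.0 to 121). The intervals run over nucleosomes of merged libraries, so the difference between lost and gained was not tested. An ethanol occupancy of 200 or more at low salt was found for 264 lost pairs (29.4%) and 424 gained pairs (38.6%), where the share over all matched pairs outside was 43.2%. Inside the clusters, lost nucleosomes had medians of 315 in auxin and 426 in ethanol at low salt, and of 452 and 1135 at high salt. Correction for base composition is named for the tables that compare *prde-1* with VC2010 and not for those of YL701, and the part of this in the values was not tested.

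**Figure D3:**
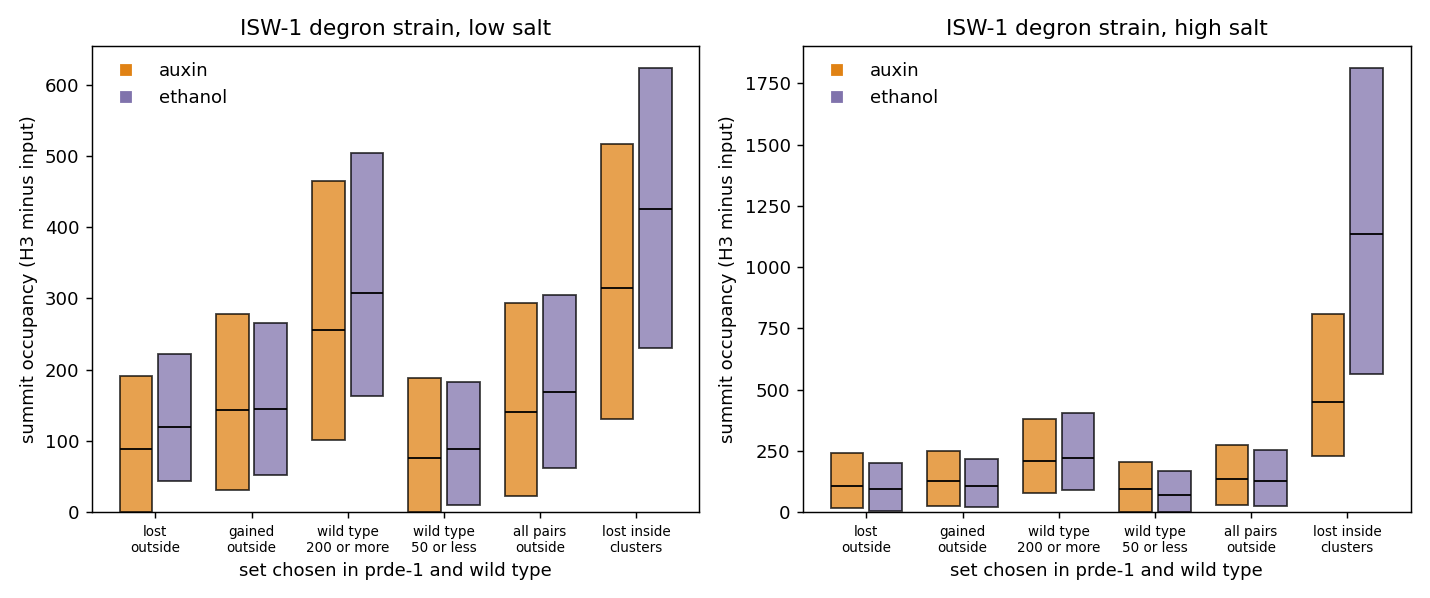
Summit occupancy in auxin (left boxes) and ethanol (right boxes) of the degron strain at low and high salt, for sets of pairs chosen in *prde-1* and wild type; boxes span the quartiles and the line is the median. Lost nucleosomes outside the clusters (ethanol medians 119.8 and 95.0) lie below pairs with 200 or more in wild type (308 and 223) and far below lost nucleosomes inside the clusters (426 and 1135).

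A small group of members departed from the rest. At high salt 15 lost nucleosomes had an ethanol occupancy of 1000 or more (1.67% of the 898 matched), where 3.94% of the matched pairs with 200 or more in wild type, 0.996% of all matched pairs outside the clusters and 2 gained pairs did. Lost nucleosomes thus reached this level less often than other nucleosomes that were high in wild type. The 2 sets differ in wild type level, with high-salt medians of 281 in lost pairs and 328 in all pairs with 200 or more. The part of this in the 2 shares was not tested. Of the 15, 14 lie on chromosome IV between the clusters. Chromosome IV outside the clusters holds 202 of the 1426 members, and 424 of the 2202 pairs outside with 1000 or more in ethanol. The motif and piRNA genes were common among them: 10 had the core motif within 150 bp and 8 an annotated piRNA 5′ end within 500 bp, and 14 had at least 1 of these. Of the 2202 pairs outside the clusters with the same ethanol level, 132 had the motif, 81 a piRNA 5′ end and 170 at least 1 of these. Without both repeat copies beside 21ur-14139, 13 members remained, of which 12 lie on chromosome IV, 10 had the motif, 6 a piRNA 5′ end and 12 at least 1 of these. The level of 1000 was chosen after the values were seen.

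**Figure D4:**
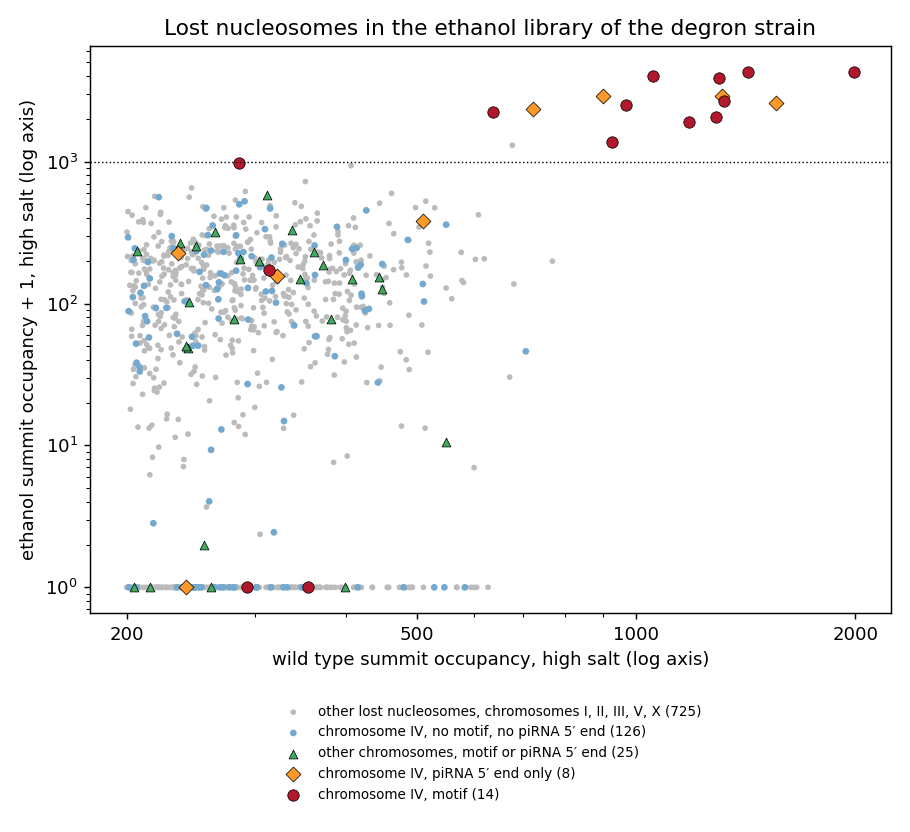
Ethanol against wild type summit occupancy at high salt for the 898 lost nucleosomes with a match (both axes logarithmic, 1 added to ethanol, dotted line at 1000). The 15 members over the line include 10 of the 14 on chromosome IV with the motif (red) and 4 of the 8 on chromosome IV with a piRNA 5′ end and no motif (orange); the remainder scatter between 0 and 1000.

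The 14 on chromosome IV shared high wild type values at high salt. The nucleosome in an intron of *deb-1*, which encodes vinculin, a protein of muscle attachments (dyad chrIV:7094069), had 25.9 in *prde-1* and 1993 in wild type, and 1974 in auxin and 4284 in ethanol. Its dyad lies 129 bp upstream of the 5′ end of 21ur-14731. The nucleosome 2527 bp from the non-coding RNA gene R13.7 (dyad 10805354), whose nearest annotated piRNA 5′ end is 9852 bp away, had 0 in *prde-1* and 1428 in wild type, and 1886 in auxin and 4299 in ethanol. The levels in *prde-1*, in wild type and in ethanol chose these members, so that only those in auxin were left free.

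Introns of other coding genes held several more. In *npr-2*, a neuropeptide receptor gene (dyad 9570050), occupancy was 0 in *prde-1* and 1056 in wild type, and 984 in auxin and 4013 in ethanol. In *lron-14*, 2 members 360 bp apart flank 21ur-9476. The first (dyad 9561737) had 0 in *prde-1* and 1302 in wild type, and 1588 in auxin and 3854 in ethanol. The second (dyad 9562097) had 0 in *prde-1* and 969 in wild type, and 1277 in auxin and 2518 in ethanol. In *daf-10*, a gene of ciliary transport (dyad 9140214), occupancy was 45.5 in *prde-1* and 1182 in wild type, and 694 in auxin and 1891 in ethanol. Where *cpin-1* and *cutl-17* overlap (dyad 9451737) it was 0 in *prde-1* and 636 in wild type, and 279 in auxin and 2228 in ethanol.

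Further members lay beside coding genes. The nucleosome 662 bp before the start of the potassium channel gene *twk-8* (dyad 9081693) had 0 in *prde-1* and 1321 in wild type, and 1236 in auxin and 2674 in ethanol. That 144 bp past the end of *thn-1* (dyad 12381044) had 0 in *prde-1* and 1287 in wild type, and 879.7 in auxin and 2047 in ethanol. That 154 bp before the start of *srf-3*, a nucleotide sugar transporter gene (dyad 12849356), had 16.9 in *prde-1* and 928 in wild type, and 617 in auxin and 1374 in ethanol.

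The 4 members without the exact motif lay near piRNA genes, and auxin was below wild type beside 21ur-9462 and 21ur-9485 and above it in both repeat copies. That 125 bp upstream of 21ur-9462 (dyad 10541188) had 0 in *prde-1* and 1556 in wild type, and 972 in auxin and 2583 in ethanol. That 85 bp upstream of 21ur-9485 (dyad 9785408) had 41.7 in *prde-1* and 722 in wild type, and 638 in auxin and 2359.7 in ethanol. The repeat copies beside 21ur-14139 had 0 and 0 in *prde-1* and 1311 and 900.3 in wild type, and 1316 and 1478 in auxin and 2922 and 2907 in ethanol.

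The only member of the 15 off chromosome IV lies in an exon of *eef-1A.1* on chromosome III (dyad 6971150), which encodes translation elongation factor 1 alpha. It had 3.06 in *prde-1* and 677 in wild type, and 91.8 in auxin and 1303 in ethanol, with neither motif nor piRNA gene near. At high salt auxin was below ethanol in all 15 and at 50% of it or less in 13 of 15 (86.7%), against 1978 (89.8%) and 1071 (48.6%) of the 2202 pairs outside the clusters with 1000 or more in ethanol. The ethanol median was 2583 in the 15 and 1299.5 in the 2202. Without the repeat copies auxin was at 50% or less in 12 of 13. At low salt 14 of the 15 had a match, with medians of 576 in auxin and 657 in ethanol, and auxin was below ethanol in 10 of 14. These are single merged libraries, and the spread between replicates is unknown.

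**Figure D5:**
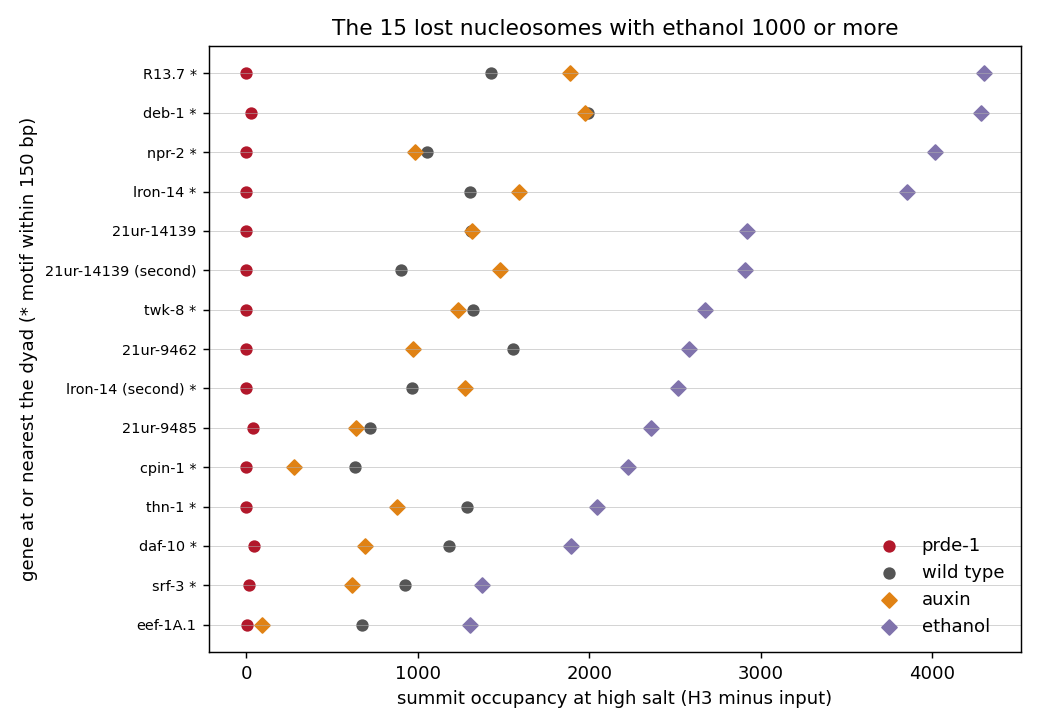
Summit occupancy at high salt of the 15 lost nucleosomes with 1000 or more in ethanol, in *prde-1* and wild type (circles) and in auxin and ethanol (diamonds), named by the gene at or nearest the dyad. In *prde-1* all lie between 0 and 45.5; the remaining 3 libraries show 636 to 1993 in wild type, 91.8 to 1974 in auxin and 1303 to 4299 in ethanol.

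To look at the same feature without the rule, pairs were taken by the ethanol level and the motif alone. On chromosome IV outside the clusters 95 pairs had 1000 or more in ethanol at high salt and a core motif within 150 bp, at 91 motif sites. Their median at high salt was 137 in *prde-1* and 901 in wild type, and *prde-1* was the lower in 89 of 95. The low-salt medians were 133 in *prde-1* and 343 in wild type, with 78 lower. Without the 10 members of the lost set among them, the high-salt medians were 149.7 in *prde-1* and 858 in wild type, with 79 of 85 lower. The 329 pairs on chromosome IV with the same ethanol level and no motif had 711 in *prde-1* and 603 in wild type at high salt, and 120 of 329 were lower. At low salt the order in these was the other way round, with 448 in *prde-1* and 606 in wild type, and 226 of 329 lower. On the other chromosomes the 37 pairs with a motif had 454 in *prde-1* and 557 in wild type (22 lower), and the 1741 without one had 744 and 599 (542 lower), both at high salt. At low salt these had 399 in *prde-1* and 517 in wild type (25 lower) with a motif, and 487 and 669.8 (1194 lower) without one. On chromosome IV an annotated piRNA 5′ end lay within 500 bp of 42 of the 95 pairs with a motif and of 19 of the 329 without one. At high salt *prde-1* was at 50% of wild type or less in 79 of 95 and 50 of 329. On the other chromosomes it was so in 12 of 37 and 101 of 1741. At high salt a lower median in *prde-1* thus went with the motif, with the wider gap on chromosome IV. On chromosome IV it also held outside the lost set, which holds 14 of those 424 pairs. With ethanol at 500 or more, *prde-1* was lower at high salt in 138 of 164 pairs with a motif on chromosome IV. On the other chromosomes it was lower in 114 of 230, with medians of 272 in *prde-1* and 313 in wild type. Without a motif it was lower in 709 of 1884 and 4106 of 11950. Off chromosome IV the order with a motif was thus weak. Motif and piRNA gene were not told apart. At low salt *prde-1* had the lower median with and without the motif.

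The core motif was found more often near lost than near gained nucleosomes. It lay within 150 bp of the dyad, on either strand, for 48 lost (3.37%, 95% exact binomial interval 2.49% to 4.44%) and 28 gained nucleosomes (1.76%), against 1.75% of all pairs outside. On chromosome IV it did so for 14 of 202 lost (6.93%) and 4 of 216 gained (1.85%) against 2.28% of pairs, and elsewhere for 34 of 1224 lost (2.78%) and 24 of 1372 gained (1.75%) against 1.68%. Inside the clusters the share was 57.9% of lost pairs. Of the 34 members off chromosome IV, 22 had a YL701 match at high salt, with medians of 85.8 in auxin and 149.6 in ethanol, and none reached 1000 in ethanol.

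The motif tended to point away from the dyad. Counted on the strand of the motif, it lay 3′ of the dyad in 11 of the 14 chromosome IV members and in 23 of the 34 elsewhere (67.6%), against 50.1% of the 5890 pairs outside with a motif and 65.8% of lost pairs inside the clusters. It fell 40 to 100 bp 3′ of the dyad in 9 of 14 and 14 of 34 (41.2%), against 21.5% of all such pairs outside and 58.8% of lost pairs inside. For the 10 sequences printed above the distance was 44 to 92 bp. The exception in side was *daf-10*, whose motif lies 92 bp on the 5′ side. The 40 bases before the motif were 67.5% to 90.0% A or T in these 10 (median 78.8%), against a median of 65.0% over the motif sites of all pairs outside and 77.5% for lost pairs inside. In the 34 members off chromosome IV the median was 62.5%, near that of all pairs outside and below that of lost pairs inside. Of their sites 23.5% had 75% or more A or T, against 23.4% for all pairs outside and 71.7% for lost pairs inside.

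An annotated piRNA 5′ end lay within 500 bp of 20 lost (1.40%, interval 0.859% to 2.16%) and 13 gained nucleosomes (0.819%), against 1.03% of all pairs outside and 94.5% of lost pairs inside. Of the 20, 15 lie on chromosome IV. Those not described above had lower levels. The nucleosome in an exon of C39E9.7 (dyad chrIV:13074668), 160 bp upstream of 21ur-12375, had 0 in *prde-1* and 511 in wild type at high salt, and 12.7 in auxin and 378 in ethanol. That in *fbxb-74* (dyad chrIV:4437931), 167 bp upstream of 21ur-14085, had 0 in *prde-1* and 313 in wild type at high salt, and 0 in auxin and 171 in ethanol. That beside 21ur-14644 (dyad chrIV:17371676), just right of the clusters, had 46.0 in *prde-1* and 300.1 in wild type and no match in YL701. That in F16B4.2 on chromosome V (dyad 1602332), 213 bp from 21ur-9839, had 0 in *prde-1* and 215 in wild type, and 120.3 in auxin and 0 in ethanol.

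By the smaller of the 2 wild type values, the members at the top were unlike the bulk. Among the 39 with 400 or more in wild type at both salts, 13 (33.3%) lie on chromosome IV, 7 (17.9%) had the motif and 5 (12.8%) a piRNA 5′ end. Among the 879 with 200 to 250 as the smaller value, 12.2% lie on chromosome IV, 2.50% had the motif and 0.683% a piRNA 5′ end. Of the 44 gained pairs with 400 or more in *prde-1*, 10 (22.7%) lie on chromosome IV, 1 had the motif and none a piRNA 5′ end. Pairs with 400 or more in wild type as a whole lie on chromosome IV in 12.8% of cases, with the motif in 1.89%.

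Of the 12 largest differences, 7 belong to the group above and 5 do not. The largest of all lies near the right end of chromosome I (dyad 15068409), 54 bp from the non-coding RNA gene F31C3.14, with 0 and 0 in *prde-1* and 3427 and 3908 in wild type at low and high salt, and with no YL701 nucleosome within 40 bp (the nearest lies 63 bp away in both tables). The member in an intron of *xpc-1*, a DNA repair gene (dyad chrIV:2005479), had 0 and 0 in *prde-1* and 549.8 and 1498 in wild type, and its footprint has a GC content of 6.80%. No YL701 nucleosome lay within 40 bp of it. The member in the globin gene *glb-13* (dyad chrX:12377317) had 0 and 2.18 in *prde-1* and 529 and 671 in wild type, but 67.4 in auxin and 29.3 in ethanol at high salt. Those in T02C12.5 (dyad chrIII:4027357) and beside *npr-41* (dyad chrII:11514010) had 27.8 and 38.3 in *prde-1* and 519 and 545 in wild type at high salt. Soft-masked repeat sequence made up 76.9% of the footprint near F31C3.14, 100% of that in *xpc-1* and 87.8% of that in *glb-13*. For T02C12.5 and *npr-41* it was 42.9% and 13.6%. Whether reads in these footprints can be told apart from other copies was not tested.

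The 3 largest gained pairs, ranked in the same way, had 751, 607 and 580.0 as the smaller of their differences at the 2 salts. The nucleosome in an exon of the aldehyde dehydrogenase gene *alh-2* (dyad chrV:1645753) had 751 and 1432 in *prde-1* and 0 and 0 in wild type at low and high salt, with no YL701 match. That in an intron of C33B4.4 (dyad chrII:11376528) had 635 and 1415 in *prde-1* and 27.8 and 0 in wild type. That beside *slc-17.6* on chromosome I (dyad 2248865) had 726 and 580.0 in *prde-1* and 0 and 0 in wild type. At high salt C33B4.4 and *slc-17.6* had 154 and 57.0 in auxin and 0 and 0 in ethanol.

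Base composition of the footprints differed between lost and gained nucleosomes. The mean GC content was 37.5% ± 7.71 in lost and 35.0% ± 7.34 in gained footprints, against 35.8% ± 8.12 in all pairs with 200 or more in wild type and 36.2% ± 7.69 in all pairs outside (SD over nucleosomes). Soft-masked repeat sequence made up 26.4% of the lost and 39.2% of the gained footprints on average, against 46.7% for pairs with 200 or more in wild type and 36.3% for all. Footprints with no masked base were 21.4% of the lost and 10.3% of the gained. All pairs outside with 50 or less in *prde-1* at both salts were close to the lost set. They had a mean GC content of 36.8%, 26.7% masked sequence and 22.6% of footprints with no masked base. Pairs with 50 or less in wild type at both salts had 35.8%, 30.8% and 18.4%. These traits are therefore not particular to the lost set. Base composition moves with the rule here, and its part in the counts was not tested.

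By annotation the members resembled all pairs. Dyads lay in exons of protein-coding genes for 32.0% of lost and 26.8% of gained nucleosomes (29.2% of all pairs), in introns for 32.5% and 36.2% (35.1%), within 500 bp upstream of a coding start for 7.64% and 6.93% (7.58%), and elsewhere for 27.8% and 30.0% (28.1%). For pairs with 200 or more in wild type the shares in the same order were 25.8%, 39.7%, 8.74% and 25.8%. For all pairs outside with 50 or less in *prde-1* at both salts they were 32.4%, 31.8%, 7.15% and 28.6%, close to those of the lost set.

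Members in genes of the listed families were few, counting the gene and 500 bp upstream. Of 19073 protein-coding genes outside the clusters, 5.27% held a lost and 5.65% a gained nucleosome. Of 18 genes for piRNA transcription and processing, only *prg-1*, the PIWI protein gene, held a lost nucleosome (in an intron, dyad 7587972 on chromosome I, 0 and 0 in *prde-1* and 290.4 and 408 in wild type, no match in YL701), and none held a gained one. Collagen genes held lost nucleosomes in 7 and gained ones in 3 of 152 cases, srh chemoreceptor genes in 9 and 5 of 217, and C-type lectin genes in 10 and 7 of 230. None of 72 histone genes, 22 major sperm protein genes, 20 rRNA genes or 7 germ granule genes held either. Of 8 genes of the synaptonemal complex and axis, *syp-5* held a lost and *syp-6* a gained nucleosome. Of 7471 non-coding RNA genes, 1.20% held a lost and 1.06% a gained nucleosome. Of short RNA genes, 4 and 3 of 571 tRNA, 2 and 2 of 113 snRNA, 3 and 0 of 329 snoRNA, and 10 and 6 of 1022 piRNA genes held a lost and a gained nucleosome.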

How the data were processed

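Native H3 ChIP-seq of isolated germ nuclei was analysed from 4 deposited tables of nucleosome positions, each comparing 2 merged libraries. As the methods of the study describe, the authors used Bowtie2 and the ce11 assembly, filtered alignments on quality and duplication, brought the 2 replicates of a group to equal size before merging, applied a GC correction, selected fragments the size of a mononucleosome, and called nucleosomes with DANPOS3. The deposited summit occupancy is a signal that the authors computed as H3 minus input, scaled to a common total per library, so a change in the total cannot be seen, and values are never below 0. The deposited positions and distances are in bp, and the point occupancy, an alternative here, is taken by the authors' tool where the 2 libraries differ most. Only the *prde-1* and wild type tables are named as GC corrected. The columns of the authors' own comparisons (log2 fold changes, p-values, FDR and fuzziness) were not used. Read depth behind each value is unknown, and no interval for counting error is given.

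Centres of the 2 tables were paired when mutually nearest and within 40 bp, and the dyad of a pair was their midpoint. A YL701 value was that of the nearest centre within 40 bp. Genes came from the Ensembl 115 annotation of WBcel235 and sequences from the RefSeq genome of that assembly. All dyads fell within its chromosomes. CTGTTTCA was searched on both strands. Medians have exact binomial 95% intervals over nucleosomes, which are not replicates. No test was made. Members and lists were chosen with earlier results of these data known. Named members were the 12 largest lost and 3 largest gained by the smaller difference of both salts, lost members nearest to piRNA 5′ ends, runs of 3 or more, members in genes for piRNA transcription and processing (18 of the 20 listed were found outside the clusters), and members next to each threshold; the group with 1000 or more in ethanol was chosen after its values were seen. Alternatives covered thresholds, matching distances, point occupancy, each table alone, a limit on summit distance and, chosen after seeing the data, leaving out chromosome IV or the repeat beside 21ur-14139. The procedure was tested on simulated data with planted nucleosomes. Python 3.11.15, pandas 2.3.3, numpy 2.4.6 and scipy 1.17.1 were used.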

Additional observations from a re-analysis of the deposited data

How the results depend on the processing

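Lost nucleosomes were fewer than gained ones under every alternative listed here, while their numbers followed the rule. Lost and gained pairs numbered 144 and 176 with thresholds of 300 and 30, 4769 and 5339 with 150 and 75, 873 and 963 with centres within 20 bp, and 7309 and 10428 by point occupancy. In the low-salt table alone there were 26751 and 27769, and in the high-salt table alone 35977 and 40618. The share lost lay between 47.0% and 49.1% under the alternatives other than the stricter thresholds (45.0%) and point occupancy (41.2%). Centres within 73 bp (1845 and 2009), summits of the 2 libraries within 40 bp (1030 and 1106) and leaving out chromosome IV (1224 and 1372) kept both counts within 1.5 times. Whether the members left out by the limit on summits had shifted in position was not tested. The median ethanol occupancy of lost nucleosomes at low salt moved beyond its interval to 138 with the stricter thresholds and to 191 by point occupancy, and at high salt to 154 by point occupancy. That of gained nucleosomes became 199.8 and 246 under the same 2 settings at low salt, and 172 by point occupancy at high salt. The cause was not tested. Of 77 alternative values 53 stayed within these bounds. The share of lost nucleosomes with a piRNA 5′ end was 0.631% within 200 bp and 2.59% within 1000 bp, and with the motif 1.47% within 73 bp, 5.12% within 300 bp and 2.78% without chromosome IV. No paired analysis was possible because each library merges its replicates, and leaving out a replicate was not possible for the same reason.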
